A study of Mus musculus with 16 samples.

Results

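The miRNAs of the Dlk1-Dio3 imprinted cluster, on the distal part of mouse chromosome 12, were measured in 16 liver samples of male C3H/HeJ mice. Members were taken by miRNA number: 51 numbers of the cluster define the set, with any arm, and 48 of them were on the array. This gave 72 member miRNAs of 566 mouse miRNAs measured. miR-494, which lies in the same cluster, is not a member and is given once for comparison.

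The arrays were one-colour Agilent mouse miRNA arrays, 1 per sample, loaded with 25 ng of end-labelled total RNA. The groups were 7 Ctnnb1-mutated liver tumours and 3 non-tumour control livers labelled with phenobarbital, and 3 Ha-ras-mutated tumours and 3 non-tumour control livers labelled with water and no phenobarbital. Ctnnb1 encodes beta-catenin, the effector of Wnt signalling, Ha-ras encodes a small GTPase, and phenobarbital is a liver tumour promoter. The 10 arrays with phenobarbital are called the phenobarbital arm here, and the controls without it untreated controls.

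Per the series' design text, mice received the carcinogen diethylnitrosamine (DEN) once, at 2 or 6 weeks of age and at 10 or 90 µg per g body weight. After 2 weeks without treatment they were kept on a diet with 0.05% phenobarbital or a control diet for 28 to 36 weeks. The sample labels give 27 weeks of treatment, and their treatment protocol 28 days in drinking water. Which dose and age applied to which sample is not given, nor whether the control livers received DEN, so that phenobarbital cannot be told apart from any such difference between the arms. The labels name no pooling and do not say that samples of a group came from separate mice, so a p-value here measures only how far these samples spread, which may be technical.

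The cluster is expressed from the maternally inherited chromosome, where it follows the long noncoding RNA Meg3. Its miRNAs are cut from a row of noncoding transcripts: Meg3 itself, a transcript antisense to the paternally expressed gene Rtl1, Rian, and Mirg. They are abundant in embryo, placenta and brain, and in most adult tissues, liver included, they are low. A miRNA recognises its targets mainly through its seed, the bases near its 5′ end.

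The 14 members detected on at least 4 arrays carry the results below, and their mature sequences are shown to let the probes' targets and seeds be compared. They are printed 5′ to 3′ in the order of the locus, from RefSeq (GRCm38.p6), with the seed (bases 2 to 8) in capitals. Older array names were matched to the arm names used today.
miR-337-5p: cGGCGUCAugcaggaguugauu
miR-127 (miR-127-3p): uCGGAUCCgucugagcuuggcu
miR-434-3p: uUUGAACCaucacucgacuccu
miR-136 (miR-136-5p): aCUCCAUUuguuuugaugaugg
miR-379 (miR-379-5p): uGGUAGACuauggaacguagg
miR-411 (miR-411-5p): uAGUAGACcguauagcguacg
miR-411* (miR-411-3p): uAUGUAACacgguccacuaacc
miR-299* (miR-299a-5p): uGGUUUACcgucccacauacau
miR-376b (miR-376b-3p): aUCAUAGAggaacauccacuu
miR-376a (miR-376a-3p): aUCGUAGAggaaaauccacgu
miR-300 (miR-300-3p): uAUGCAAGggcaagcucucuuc
miR-154 (miR-154-5p): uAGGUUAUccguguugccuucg
miR-154* (miR-154-3p): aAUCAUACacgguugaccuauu
miR-377 (miR-377-3p): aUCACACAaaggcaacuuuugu

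No 2 of these 14 members shared a seed. miR-379 shared its seed with miR-1193-5p of the cluster, which was not on the array. miR-411* shared its seed with 1 other arm of the cluster, miR-379-3p, which differs from it by 2 edits over 22 bases and was not on the list of detected members.
miR-379-3p: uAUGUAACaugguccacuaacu
miR-376a and miR-376b differed by 3 edits over 21 bases and in the seed (UCGUAGA and UCAUAGA), and miR-300 and miR-381-3p by 3 over 22. miR-299a-5p is 1 edit from miR-299b-5p, which RefSeq places on the opposite strand of the same locus. A probe's own sequence was not used here, so that for these pairs a signal cannot be assigned to 1 RNA with certainty.

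In RefSeq all 48 precursors lie on the plus strand of chr12:109563692-109743795, a stretch of 180 kb. The miR-127 arm lies at chr12:109592888-109592909 and that of miR-136 at chr12:109595331-109595352, both antisense to Rtl1. The miR-379 arm, the first of the Mirg group, lies at chr12:109709065-109709085, and the miR-377 arm at chr12:109740553-109740574. The measured precursors themselves lie mostly in 2 stretches of the locus, with the 3 of the Rian group between them, and the detected members lay in these 2 stretches. In the group of Meg3 and the Rtl1 antisense transcript, 4 of 11 precursors had a detected arm, in the Rian group 0 of 3, and in the Mirg group, from miR-379 to miR-410, 12 of 34. Over the whole cluster it was 16 of 48, so 0 of 3 does not set the Rian group apart.

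**Figure D1:**
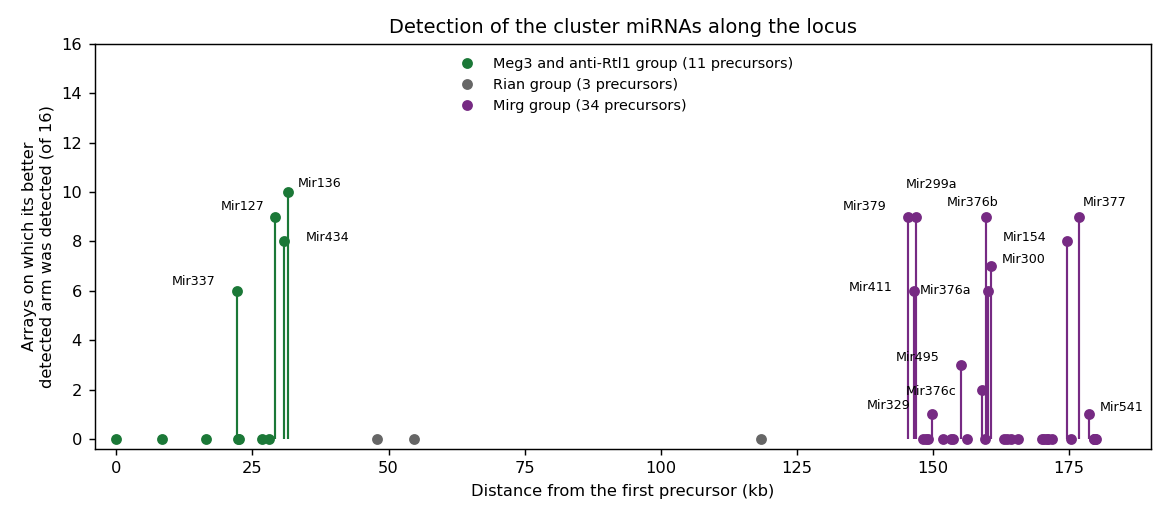
Distance in kb from the first precursor of the cluster (x axis) against the number of the 16 arrays on which the precursor's better detected arm was detected (y axis); each point is 1 of 48 precursors, coloured by transcript group. The 16 precursors with a detected arm lie in the Meg3 and anti-Rtl1 group (4) and in the Mirg group (12), and Mir136 reaches the highest count, 10 arrays.

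The promoter of Meg3, the transcript at the head of the cluster, is printed for reference. Meg3 RNA was not measured, and a link of its promoter to the miRNA levels was not tested. The promoter spans chr12:109540746-109541045 (GRCm38.p6, plus strand, RefSeq), with a match to the cyclic AMP response element in capitals.
Meg3 promoter: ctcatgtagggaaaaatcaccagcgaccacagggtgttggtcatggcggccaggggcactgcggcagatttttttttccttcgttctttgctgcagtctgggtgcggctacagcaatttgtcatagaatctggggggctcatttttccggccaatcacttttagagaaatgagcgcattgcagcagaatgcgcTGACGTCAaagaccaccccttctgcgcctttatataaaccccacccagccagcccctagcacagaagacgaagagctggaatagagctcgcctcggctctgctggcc
Searched on both strands, TGACGTCA had 1 match and is present in 1.8% of 32851 promoters of that length. CTTTGA, the core recognised by TCF/LEF factors, had 1 match, on the other strand and overlapping the first by 3 bases, and is present in 16% of promoters. AGGTCA, a core recognised by nuclear receptors, and CACGTG, an E-box, had 0 matches, with 16.3% and 7.2% of promoters holding them. These letter matches describe the window and say nothing of binding.

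Arrays detected 83 to 117 of the 566 mouse miRNAs, with 11.7% to 16.5% of their spots above background by the software's call. Arrays of the same group correlated at 0.926 to 0.993 across miRNAs. The liver label was borne out by miR-122, the main hepatocyte miRNA, which was detected on every array. A miRNA counts as detected where, for at least 1 of its probes, most spots were well above background. Values below are scaled signals: background-subtracted signals, in linear units, scaled so that arrays share the 75th percentile of 117 probes detected on all 16 arrays. A signal near 0, or below it, is what an empty spot gives, and signals of a miRNA are compared only with those of the same miRNA on other arrays.

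The cluster was detected in the phenobarbital arm and on none of the other arrays. In Ctnnb1 tumours 22 of 72 members (30.6%) were detected on at least 1 array, and in phenobarbital controls 14 of 72 (19.4%). In Ha-ras tumours and in untreated controls 0 of 72 were detected. Among the other mouse miRNAs on the array, the shares detected on at least 1 array of these groups were 24.1%, 19.8%, 20.9% and 22.1%, in the same order. By the scanner software's own call per miRNA, 30 members were detected on some array of the phenobarbital arm and 0 on the other 6 arrays. In tissue samples, fewer cells of a type and less RNA per cell cannot be told apart.

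Within the phenobarbital arm the count differed widely between arrays. The 7 Ctnnb1 tumours, replicates 1 to 7, had 9, 12, 22, 15, 12, 7 and 16 members detected, and phenobarbital controls 4, 5 and 6 had 8, 1 and 14. Control replicate 5 stood apart in the cluster with its 1 member, miR-136, although 99 mouse miRNAs were detected on that array. By the scanner software's call it had 4 members, still the fewest of its arm. The ranges of both groups overlapped, and only tumour replicates 3, 4 and 7 had more members detected than control replicate 6.

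**Figure D2:**
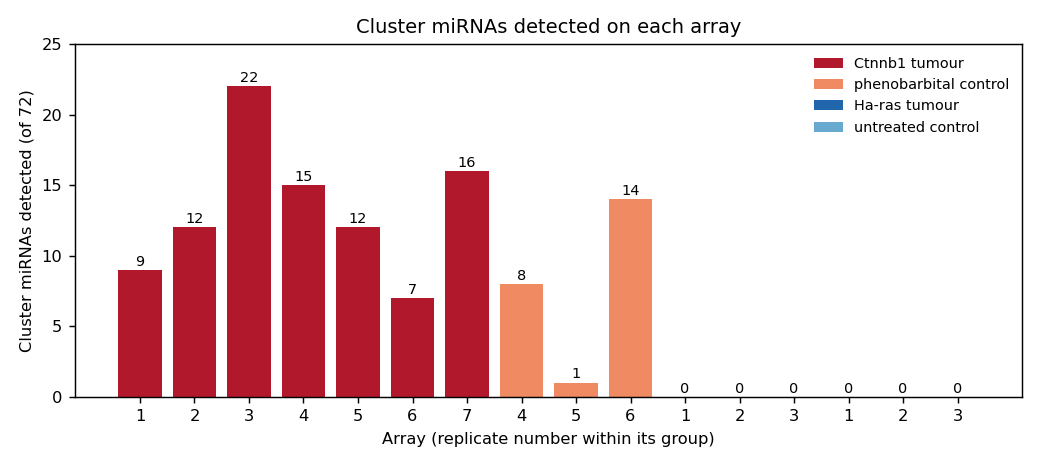
Number of the 72 cluster miRNAs detected on each of the 16 arrays (y axis), with arrays by replicate number within their group (x axis) and bars coloured by group. Counts run from 7 to 22 in Ctnnb1 tumours and from 1 to 14 in phenobarbital controls, and are 0 on all 6 arrays of Ha-ras tumours and untreated controls.

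Of all mouse miRNAs, 34 were detected in the phenobarbital arm only, and 22 of them were members of the cluster. With detection on at least 6 arrays of that arm and none of the other, 13 miRNAs were left, 12 of them members. In the opposite direction, 9 miRNAs were detected in the other arm only, 0 of them members. The phenobarbital arm had 10 arrays and the other 6, which gave it more chances of detection. With detection on at least 3 arrays of 1 arm and none of the other, there were 20 miRNAs for the phenobarbital arm, 15 of them members, and 1 for the other.

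By the detection rule used here, the miRNAs antisense to Rtl1 gave the most widely detected member. By the scanner software's call miR-127, miR-299* and miR-379 were detected on as many arrays. miR-136 was detected on all 10 arrays of the phenobarbital arm. Its signal was 26.1 to 150 in Ctnnb1 tumours, with a median of 61.1, and 70.7, 17.4 and 95.4 in phenobarbital controls 4, 5 and 6. In untreated controls 1 to 3 it was 8.12, 9.99 and 9.47, and in Ha-ras tumours 1 to 3 it was 4.22, 4.58 and 5.23. All arrays of the phenobarbital arm lay above all others, with control replicate 5 closest.

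miR-127, which is fully complementary to Rtl1 and represses it, was detected on 9 arrays. Its signal ran from 17.5 to 98.5 in the tumours, with a median of 48.7, and was 34.1, 10.7 and 59.2 in phenobarbital controls. On the other 6 arrays it was -1.14 to 4.13. miR-434-3p, the third detected miRNA of this antisense transcript, was detected on 8 arrays, with 9.18 to 59.6 in tumours (median 22.3), 27.9, 4.2 and 49.3 in phenobarbital controls, and at most -0.933 elsewhere. These groups did not overlap either, and control replicate 5 was again the lowest array of its arm.

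miR-337-5p, from the start of the same stretch, was detected on 6 arrays. Its signal was 10.6 to 44.8 in tumours, with a median of 30.0, and 15.2, 2.9 and 25.7 in phenobarbital controls. The highest value without phenobarbital was 1.58. The other arms of 2 of these precursors, miR-136* and miR-434-5p, were detected on Ctnnb1 tumour replicate 3 only, at signals of 15.5 and 20.5. Precursors that lie between them, among them miR-431 and miR-433, were detected on 0 arrays.

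In the Mirg group, whose deletion in mice disturbs metabolic adaptation at birth, miR-379 was the first and the most widely detected together with miR-299*, miR-376b and miR-377, each on 9 arrays. The miR-379 signal was 33.8 to 182 in Ctnnb1 tumours, with a median of 97.8. In phenobarbital controls 4, 5 and 6 it was 71.9, 15.3 and 95.1. It was 1.64, 2.93 and 3.89 in untreated controls and 2.66, 0.696 and 1.58 in Ha-ras tumours. The lowest array with phenobarbital was thus above the highest without it.

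miR-411, the neighbour of miR-379, was detected on 4 arrays from its 5′ arm and on 6 from its 3′ arm, miR-411*. The 5′ arm gave 8.66 to 53.5 in tumours (median 27.0) and 18, 4.24 and 26.6 in phenobarbital controls, and miR-411* gave 10.9 to 74.2 (median 34.8) and 25.7, 4.46 and 43.8. Neither passed 1.45 on the other 6 arrays. Both arms of 6 of the 16 precursors with a detected arm were detected on some array.

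miR-299* had log2 levels, with the floor used in the tests, of 5.05 to 6.75 in tumours, with a median of 5.38. Its signal was 54.0, 13.2 and 69.3 in phenobarbital controls, against at most 2.38 on the other arrays. The 3′ arm, miR-299, was detected on tumour replicate 3 alone, at 4.97. miR-376b, of a family whose seeds are edited from A to I in brain, had 17.9 to 119 in tumours, with a median of 52.1, and 40.6, 8.6 and 67.7 in phenobarbital controls. miR-376a, its neighbour, gave 11.6 to 60.7 (median 37.9) and 22.5, 2.9 and 30.8. Neither passed 2.66 without phenobarbital, and tumours and phenobarbital controls overlapped for all 3.

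miR-300 was detected on 7 arrays, with 11.0 to 50.6 in tumours (median 31.7) and 14.5, 2.66 and 27.8 in phenobarbital controls. miR-377 had 17.6 to 74.2 (median 44.8) and 30.3, 5.91 and 45.9. On the other arrays both stayed at or below 1.75. miR-154 was detected on 5 arrays from its 5′ arm, with 11.3 to 53.5 in tumours (median 25.5) and 26.0, 6.72 and 39.6 in phenobarbital controls. miR-154*, the 3′ arm, was detected on 8, with 22.4 to 149 (median 47.8) and 51.9, 9.92 and 120. The highest signals without phenobarbital were 5.28 and 6.02, on untreated controls, so that the gap to control replicate 5 was narrow for both arms.

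The other 8 detected members were seen on 1 to 3 arrays. miR-495 was detected on Ctnnb1 tumour replicates 3, 4 and 7, at 25.4, 24.1 and 30.4, and miR-376c on replicates 3 and 7, at 17.9 and 13.4. The remaining 6, with miR-329, miR-376b* and miR-541 beside the 3 named above, were detected on tumour replicate 3 only, where miR-329 gave 15, miR-376b* 19.5 and miR-541 14.0. The 50 members never detected included all of the Rian group (miR-341, miR-370 and miR-882) and, in the Mirg group, miR-134, miR-382 and miR-410.

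**Figure D3:**
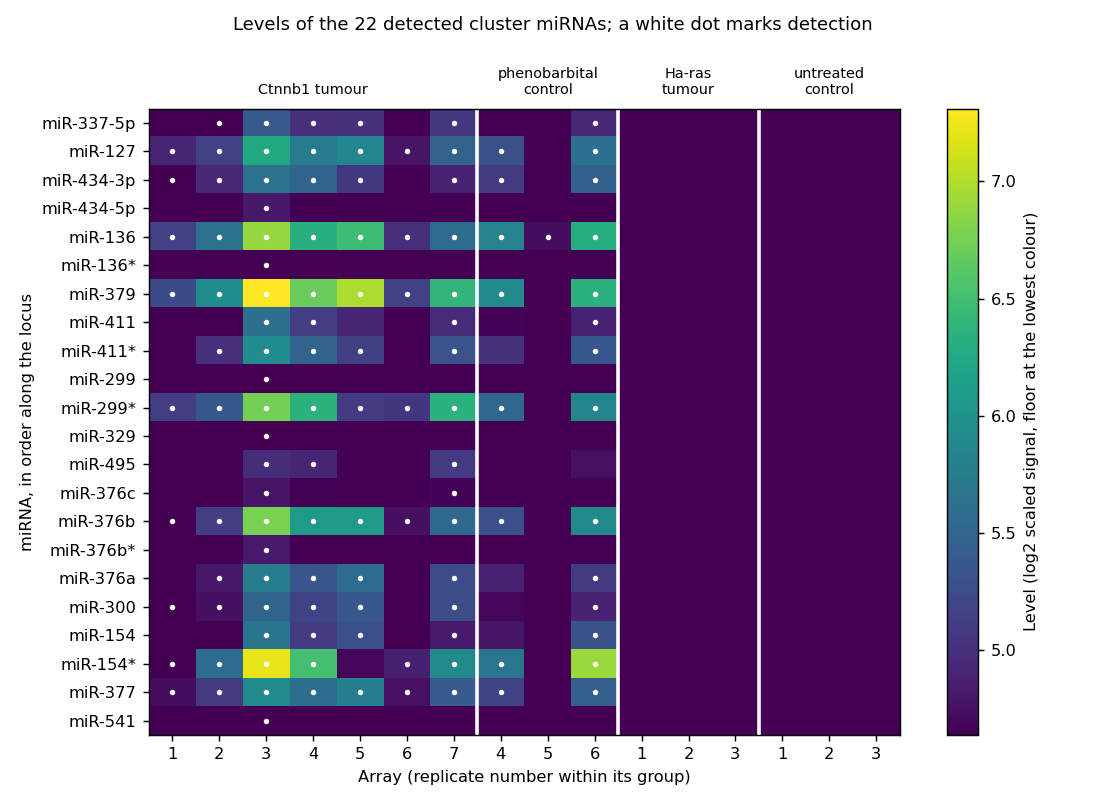
Level (log2 of the scaled signal, raised to a floor of 4.64; colour) of the 22 detected cluster miRNAs, in the order of the locus (y axis), on the 16 arrays by group and replicate (x axis); white dots mark detection. Every cell of the 6 arrays on the right is at the floor, Ctnnb1 tumour replicate 3 has a dot in all 22 rows, and phenobarbital control replicate 5 has 1, for miR-136.

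The order of the arrays was also compared without any detection rule or floor. Over all 566 mouse miRNAs, 4.06% (23) had all 10 arrays of the phenobarbital arm above all 6 others, and 21 of these 23 were members of the cluster. They comprised all 14 members detected on at least 4 arrays, 3 of the 8 detected on fewer, and 4 of the 50 never detected, miR-376a*, miR-409-3p, miR-410 and miR-496. Some of these gaps lay within what an empty spot gives, such as -1.41 against at most -1.92 for miR-409-3p and 0.383 against at most 0.284 for miR-434-5p. Without control replicate 5 the count was 27 (4.77%), with 25 members. In the opposite direction 2 miRNAs (0.353%) parted, 0 of them members, with or without that array. Control replicate 5 taken alone was above every array without phenobarbital for 24 of 72 members, beside 11.5% of all miRNAs. These included the 14 members detected on at least 4 arrays, which were picked by detection in this arm, with signals such as 15.3 against at most 3.89 for miR-379 and 5.91 against at most 1.75 for miR-377.

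The same order held on each slide that held both arms, since it held over all arrays. All 7 Ctnnb1 tumours shared slide 1 with Ha-ras tumour 1. Phenobarbital controls 4 and 5 were on slide 2 with untreated control 1 and Ha-ras tumours 2 and 3, and phenobarbital control 6 was on slide 3 with untreated controls 2 and 3. Ctnnb1 tumours and phenobarbital controls never shared a slide.

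**Figure D4:**
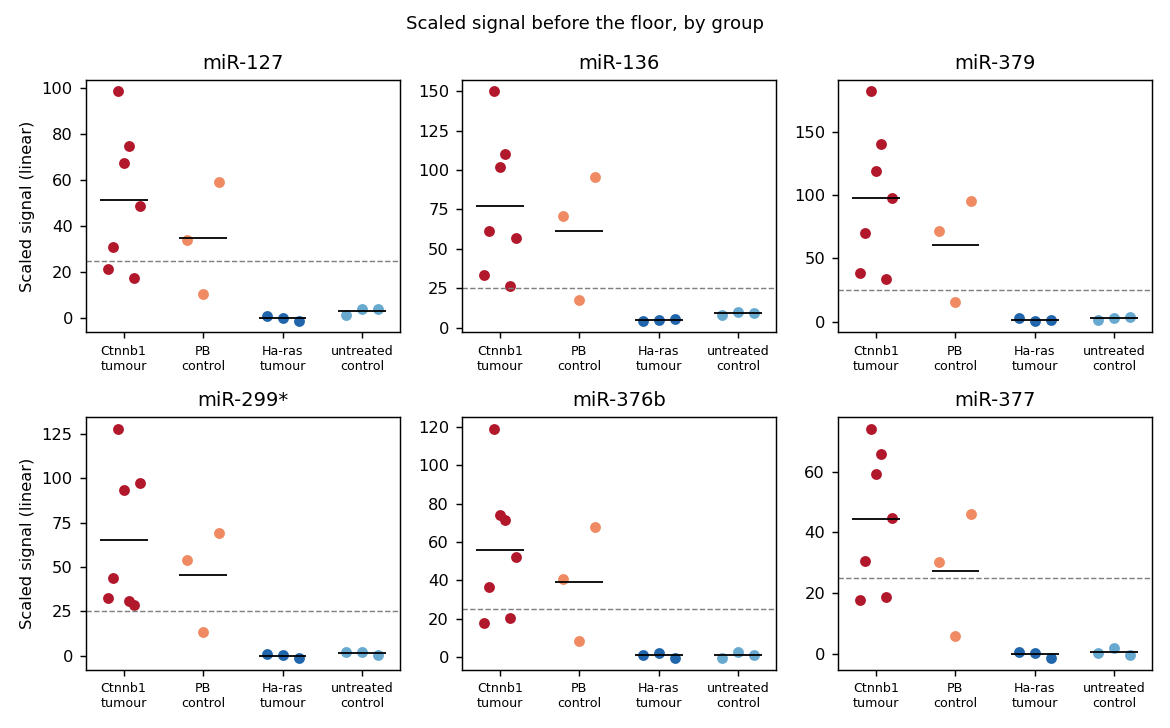
Scaled signal before the floor (y axis, linear, a scale per panel) of the 6 members that entered the tests, by group (x axis); each point is an array, black lines are group means, and the dashed line is the floor of 24.96. The 6 arrays of Ha-ras tumours and untreated controls lie below the lowest array of the phenobarbital arm in every panel, and control replicate 5 (the lowest control) lies below the floor.

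The tests used log2 levels, with signals first raised to the floor of 24.96 (4.64 on the log2 scale). To be tested, a miRNA had to be detected on all arrays of some group, which 96 mouse miRNAs met. The 6 members among them (miR-127, miR-136, miR-299*, miR-376b, miR-377 and miR-379) met it through the Ctnnb1 tumours, and miR-136 through the phenobarbital controls as well. Members high in that group were therefore bound to differ from groups at the floor, and the counts below describe these 6 and not the cluster. On arrays without phenobarbital all 6 were at the floor and so had no spread (SD 0), which makes the fitted error smaller. Folds against these groups are set against the lowest detected signal of each array, called the bound here. Probes of the higher group that lay below the floor were raised to it too, so these folds are not strict lower bounds. For miR-136, for example, 1 probe gave 14.4 on Ctnnb1 tumour replicate 1.

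Between the tumour types, 5 of the 6 were called higher in Ctnnb1 than in Ha-ras tumours by limma, and 30.2% of the 96 tested miRNAs were called, 16.7% higher. All Ctnnb1 tumours had phenobarbital and no Ha-ras tumour did, so mutation and phenobarbital cannot be told apart in this comparison. miR-379 had a log2 level of 6.25 ± 0.83 (SD, n = 7) against the floor in 3 Ha-ras tumours. It was 2.67-fold above the bound (log2 fold change from the floor 1.60, SE 0.44, limma adjusted p = 0.0186). For miR-136 the level was 5.87 ± 0.71, 2.06-fold above the bound (1.23, SE 0.38, limma adjusted p = 0.0281). miR-299* was 1.88-fold above it (limma adjusted p = 0.0357), miR-127 1.55-fold (limma adjusted p = 0.0365) and miR-377 1.41-fold (limma adjusted p = 0.0456). miR-376b, with 6 of 7 tumours above the floor, had a log2 fold change of 0.93 (SE 0.39, limma adjusted p = 0.0882). The 5 called members had all 7 Ctnnb1 tumours above all Ha-ras tumours, as 12.5% of the tested miRNAs did. Their selection by detection on all 7 of these tumours largely fixed this, so it is no support.

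Of the 6, 0 were called with slide as a fixed block or normexp background correction and 2 with scaling over all mouse probes. Leaving out Ha-ras tumours 1, 2 and 3 in turn left 0, 0 and 1 called, and leaving out Ctnnb1 tumours 4, 5 and 7 left 2, 3 and 2. Within slide 1, where Ha-ras tumour 1 was the only comparator, the miR-379 log2 fold change was 1.60. This value could not differ from the one over all slides, and so is no repeat of it. All Ctnnb1 tumours were on slide 1, and all Ha-ras tumours were at the floor. Before the floor, 32 of 72 members had all Ctnnb1 tumours above all Ha-ras tumours, beside 9.01% of all miRNAs.

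Between the controls, phenobarbital against none, 0 of the 6 members were called, as were 0% of the 96 by limma, where 6 had an unadjusted p under 0.05, 1 of them a member, miR-136. With deposited values in place of the scanner signals, 4 members (miR-127, miR-136, miR-299* and miR-379) and 5 miRNAs in all were called. Those values reach down to -1 on the log2 scale, where the floor here is 4.64, and the part of this in the calls was not tested. miR-136 had a log2 level of 5.61 ± 0.80 (SD, n = 3) in phenobarbital controls and was at the floor in the untreated ones. It was 1.80-fold above the bound (0.97, SE 0.45, limma adjusted p = 0.559). miR-379 was at 5.64 ± 0.89, 1.84-fold above the bound on a mean in which replicate 5 was raised to the floor (1.0, SE 0.52, limma adjusted p = 0.559). After the floor, all 3 phenobarbital controls were above all untreated ones for miR-136 alone of the 6, while 14.6% of tested miRNAs parted in this way. Before the floor all 6 did, control replicate 5 included.

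These differences were unequal on the slides that held both kinds of control. On slide 2, with control replicates 4 and 5, the log2 fold change was 0.64 for miR-379 and 0.63 for miR-136, and on slide 3, with replicate 6, it was 1.71 and 1.64. Before the floor, 24 of 72 members had all 3 phenobarbital controls above all 3 untreated ones, beside 8.13% of all miRNAs, and 1 member had them below, beside 6.18%.

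Between Ctnnb1 tumours and the controls of the same arm, 0 of 6 members were called by limma, with 0 at an unadjusted p under 0.05, and 8.33% of the 96 miRNAs were called, all of them lower. miR-379 had a log2 fold change of 0.61 (95% interval -0.32 to 1.54, limma adjusted p = 0.430), and miR-136 of 0.26 (-0.55 to 1.07, limma adjusted p = 0.747). Over the 6, log2 fold changes were 0.23 to 0.61 and every interval included 0, and 0 of 6 had all tumours above all controls, beside 1.04% of the 96. These values rested on control replicate 5: without it that of miR-379 was 0.11, that of miR-136 -0.18 and that of miR-376b -0.03, and those of miR-127, miR-377 and miR-299* were 0, 0.01 and 0.04. These intervals allow both no difference and a rise of more than 1 on the log2 scale for miR-136, miR-299*, miR-376b and miR-379. Before the floor, 4 of 72 members, all of them never detected, had all tumours above all phenobarbital controls, beside 1.77% of all miRNAs.

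Between Ha-ras tumours and untreated controls all 6 members were at the floor in both groups, so that there was no fold to give. 0 of 6 were called by limma (0 with an unadjusted p under 0.05) and 29.2% of the 96 miRNAs were, 9.38% higher. Before the floor, 8 of 72 members had all Ha-ras tumours below all untreated controls, among them miR-136 with 4.22 to 5.23 against 8.12 to 9.99, beside 11.5% of all miRNAs. Whether the tumour-control difference differed between the arms could not be tested for these members, since both groups of this arm were at the floor.

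**Figure D5:**
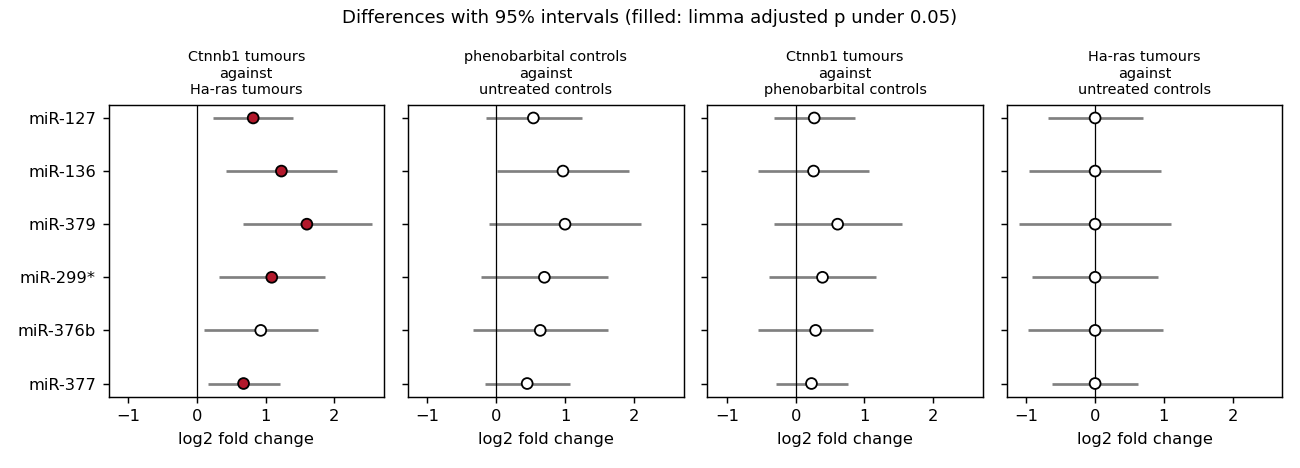
Log2 fold change (x axis) with its 95% interval from limma for the 6 tested members (y axis) in 4 comparisons; filled points have an adjusted p under 0.05. The filled points are the 5 called members of the comparison of Ctnnb1 with Ha-ras tumours, and the 6 values of Ha-ras tumours against untreated controls are 0 because both groups were at the floor.

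The 14 members detected on at least 4 arrays, which were picked by detection in the phenobarbital arm, took a similar order across its arrays. Ctnnb1 tumour replicate 3 had the highest level of all 10 arrays for 14 of the 14, and control replicate 5 was at the floor for 13 of them. The share of all mouse miRNAs that were highest on tumour replicate 3 was not computed. That array and tumour replicate 7 also had the most mouse miRNAs detected, 117. Summed over the 14, the scaled signal was 1300 on tumour replicate 3, 883, 775 and 681 on replicates 4, 5 and 7, 461 on replicate 2, and 262 and 252 on replicates 1 and 6. It was 503, 109 and 797 on phenobarbital controls 4, 5 and 6, and -18.1 to 26.1 on the other 6 arrays. The ranges of tumours and controls overlapped, and tumour replicates 1, 2 and 6 lay below 2 of the 3 controls of their arm.

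Ctnnb1 tumour replicate 5 departed from this common order for some members. Ranked among the 7 tumours, it had rank 2 from the top for 7 of the 14 members, rank 3 for 3 and rank 4 for 2, but rank 6 for miR-154* and miR-299*. Both probes of miR-154* gave it rank 6, at 26.2 and 25.3 against 140 and 158 on replicate 3. Both probes of the opposite arm, miR-154, gave it rank 2, at 29.2 and 52.3 against 38.7 and 68.3. The 2 arms of this precursor therefore took different ranks on 1 array, by both probes of each. On that array only the miR-154 probe at 52.3 was detected, and the others, at 25.3 to 29.2, lay near the floor of 24.96.

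Markers of cell types that liver or tumour tissue can hold were read beside these results, as scaled signals summed over each list. Hepatocyte miRNAs, among them miR-122, had 9 of 12 detected in each group, and sums of 15900 to 29800 in Ctnnb1 tumours, 25100 to 28400 in phenobarbital controls, 23000 to 31500 in Ha-ras tumours and 27100 to 29000 in untreated controls. Stromal and endothelial miRNAs, among them miR-126-3p and miR-199a-3p, had 3 to 5 of 8 detected, with sums of 615 to 888, 973 to 995, 561 to 726 and 735 to 977 in the same order; miR-10b, miR-145 and miR-214 were detected on 0 arrays. Leukocyte miRNAs had 3 or 4 of 7 detected, with signals averaged over the list of 42.6 to 88.6, 59.6 to 66.6, 96.5 to 141 and 38.6 to 78.3, and miR-150 and miR-155 on 0 arrays. Erythroid miRNAs had 3 of 3 detected, with 2010 to 4330, 3410 to 4720, 1510 to 5570 and 1310 to 5170. The leukocyte average was higher in Ha-ras tumours than in every other group, but its members did not rise together. Of 4 tested, 1 was called higher than in untreated controls by limma, with a median log2 fold change of -0.17. Among the list, miR-146b reached 803 on an array without phenobarbital. The part of these cells in the cluster's pattern was not tested. Neural and muscle miRNAs, of tissues where the cluster is abundant, were detected on 0 arrays, 0 of 10 and 0 of 7.

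miR-494 of the same cluster, which the member set leaves out, did not follow the other miRNAs. It was detected on all 16 arrays, with log2 levels of 6.2 to 8.04 in Ctnnb1 tumours (median 6.83), 6.00, 5.66 and 6.62 in phenobarbital controls, 6.91, 6.13 and 12.29 in untreated controls and 4.89, 8.48 and 6.57 in Ha-ras tumours. Its values overlapped between the arms and it was called in none of the 4 comparisons (lowest limma adjusted p = 0.326).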

How the data were processed

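Spot intensity values were deposited as Agilent Feature Extraction 10.7.3.1 output, background-subtracted and not normalised between arrays, per the file headers. The deposited table holds log2 values normalised by the authors, whose scale was read from its values; per the submitters' processing notes R 2.14.1 was used, and how they were normalised is not given in the sources available here. It served as an alternative.

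Outlier spots, control probes and viral probes were dropped, spots of a probe averaged, and signals divided by each array's 75th percentile of 117 probes detected on all 16 arrays. A miRNA's level is the mean over its probes. limma 3.58.1 in R 4.3.3 was fitted once, with 4 group means over 16 arrays, and p-values were Benjamini-Hochberg adjusted over 96 miRNAs (threshold 0.05). The fit was tested on simulated data. Precision is limited by signal over background and by array number. Members and lists were chosen with earlier results of these data known, so no list was tested. Named were members called in any comparison or detected on at least 1 array; 4 members named as parted before the floor, 5 never-detected examples and the precursors without detection were chosen after their values were seen. Mature sequences were in RefSeq for 21 of the 22 detected members. Alternatives were other scalings, floors, filters, backgrounds, detection rules, slide and replicate blocks and leaving out each array.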

Additional observations from a re-analysis of the deposited data

How the results depend on the processing

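Directions of the 6 tested members between Ctnnb1 and Ha-ras tumours were the same under all 22 settings run for each. With all Ha-ras tumours at the floor a direction cannot turn, so this adds no support. The number called, 5, did not hold. It was 2 with scaling over all mouse probes, 0 with normexp background correction and 0 with slide as a fixed block. With the filter at detection on at least 1 array it was 1, and 0 without a filter. A fit within slide 1, added after the data were seen, had 1 Ha-ras tumour, so its count is not given. The 6 other settings gave 5 or 6. Leaving out an array gave 0 to 7. It gave 0 without Ha-ras tumour 1 or 2, 1 without Ha-ras tumour 3, and 2, 3 and 2 without Ctnnb1 tumours 4, 5 and 7. Between controls the count of 0 became 4 with deposited values and was 0 under the 13 other settings. Between Ctnnb1 tumours and phenobarbital controls miR-136 turned to -0.18 and miR-376b to -0.03 without control replicate 5, where miR-379 fell from 0.61 to 0.11 and the other 3 members were at 0 to 0.04. Without control replicate 6, miR-136 was at 0.60 and miR-376b at 0.61. Members detected in Ctnnb1 tumours (22) were 13 where most spots of every probe had to pass, and in phenobarbital controls (14) they were 4, or 8 without control replicate 6 (range 8 to 14 over left-out arrays; 16 to 22 in Ctnnb1 tumours). The count of 0 in the other groups held throughout. The cause of these changes was not tested, except that wider filters test more miRNAs and left-out arrays are fewer samples.

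Deviations of same-numbered samples from their group means correlated at -0.77 to 0.24 in the phenobarbital arm and at -0.68 to 0.58 in the other. So few values cannot show whether the numbers pair the samples, and the main fit did not pair them. With the replicate block 0 members were called in both arms, and 2 and 14 miRNAs in all in place of 8 and 28.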

Other observations

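Outside the cluster, few mouse miRNAs followed the line between the arms. miR-709, detected on all 16 arrays, had scaled signals of 385 to 713 in the phenobarbital arm and at most 367 on the other 6 arrays, and miR-362-3p, detected on 2 arrays, had 12.6 to 18.2 against 6.08 to 9.56. miR-362-3p shares its seed with miR-329-3p of the cluster and differs from it by 9 edits. In the opposite direction miR-101b, a hepatocyte miRNA on all 16 arrays, had at most 246 against 251 to 349, and miR-146b, a leukocyte miRNA on 5 arrays, 1.6 to 11.0 against 14.5 to 803. These 4 were chosen after their values were seen.

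Of the miRNAs at other imprinted loci (the Sfmbt2, Igf2, H19, Mest and Gnas loci), 5 of 33 were detected on some array of Ctnnb1 tumours, 0 in phenobarbital controls, 1 in Ha-ras tumours and 2 in untreated controls. On no group were they detected on every array.

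The detected members whose mature sequence RefSeq lists (21) had a median GC content of 45.5%, from 36.4% to 59.1%. Among never-detected members listed under the array's own name (21 of 50) the median was 52.4%. These are descriptions of the sequences, with no test.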
